A study of Homo sapiens with 8 samples.

Results

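The RAS-ERK module was followed through 31 genes chosen by name: RAS and RAF members, the MEK and ERK kinases, the feedback inhibitors of the pathway and the transcription factors and secreted factors that report its output. Probes on the Illumina array carried 28 of them among 20046 named genes, and NRAS, BRAF and EGR2 were not analysed here. Each gene is given by its brightest probe over the 8 arrays, out of 43 probes for the 28 genes. The study asked what A204 cells, an established human malignant rhabdoid tumor line without SMARCB1 (part of the SWI/SNF complexes that remodel chromatin), express when they have become resistant to tyrosine kinase inhibitors (TKIs). Untreated parental cells had 2 arrays, and TKI-treated parental cells had 1 array each in 5 µM dasatinib, pazopanib or sunitinib. The resistant sublines DasR, PazR and SunR had 1 array each, in 5 µM of their own drug, after growth in stepwise higher doses. Each subline was selected once, so that a subline and its drug cannot be told apart. The untreated cells had no drug by their labels and DMSO by the paper, and the treatment time of the parental cells was not given in the sources used here. Arrays of the treated and of the resistant group are different drugs or sublines, so that the spread within these groups holds differences between drugs. Nothing says that the untreated arrays came from separate cultures, and the spread between them may be technical.

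In this pathway, receptor tyrosine kinases load RAS with GTP, RAS recruits RAF to the membrane, RAF phosphorylates MEK, and MEK phosphorylates ERK. Active ERK induces immediate early genes such as FOS and EGR1 within minutes, and later its own brakes, the DUSP phosphatases and the Sprouty and SPRED adaptors. Which receptor feeds the pathway differs between cell types. Array signals measure RNA only, not phosphorylation of any kinase, and in these bulk samples fewer cells of a type and less RNA per cell cannot be told apart.

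SMARCB1 lay between 6.66 and 6.93 in all 8 arrays, near the array median of 6.67 on the log2 scale, while the mesenchymal marker VIM lay between 14.24 and 14.67, and the means of MYOD1, MYOG, DES, EPCAM, CDH1, PTPRC, CD3E, PECAM1 and CDH5, markers of muscle, epithelium, leukocytes and endothelium, lay between 6.33 and 6.72. PDGFRA, a receptor that all 3 drugs have as a target, was between 12.08 and 12.60 in the parental arrays and between 9.63 and 10.45 in the sublines. Signals from ribosomal RNA also split the arrays. RNA28SN5 was between 12.44 and 12.55 in the treated parental arrays and between 8.61 and 9.35 in the sublines, and the untreated arrays fell on opposite sides at 8.35 (replicate 1) and 11.84 (replicate 2). Untreated replicate 1 was thus close to the sublines and replicate 2 to the treated parental cells, and a fit with a term for these array sets is given beside the results it touches, in which untreated cells alone span both sets, with 1 array in each.

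Promoter sequences are shown for 4 immediate early genes. JUN, JUNB and FOS carried the widest differences between groups among the module's own transcription factors, and EGR1 is a well-known target of serum response factor. They are the 250 bases before the RefSeq start in GRCh38.p14, written 5′ to 3′ on the gene's strand, at chr1:58784048-58784297 (minus strand) for JUN, chr19:12791236-12791485 (plus strand) for JUNB, chr14:75278578-75278827 (plus strand) for FOS and chr5:138465229-138465478 (plus strand) for EGR1. Capitals mark matches to the motifs named below.
JUN: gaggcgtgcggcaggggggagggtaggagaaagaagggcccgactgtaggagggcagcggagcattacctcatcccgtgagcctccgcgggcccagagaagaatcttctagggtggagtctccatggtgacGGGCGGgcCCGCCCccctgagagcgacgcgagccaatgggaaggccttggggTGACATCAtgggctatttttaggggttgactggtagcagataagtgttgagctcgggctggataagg
JUNB: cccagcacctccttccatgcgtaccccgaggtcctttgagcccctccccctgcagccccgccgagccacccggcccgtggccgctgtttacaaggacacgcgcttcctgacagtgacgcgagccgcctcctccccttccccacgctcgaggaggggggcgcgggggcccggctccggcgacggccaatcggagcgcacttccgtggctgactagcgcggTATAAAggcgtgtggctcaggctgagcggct
FOS: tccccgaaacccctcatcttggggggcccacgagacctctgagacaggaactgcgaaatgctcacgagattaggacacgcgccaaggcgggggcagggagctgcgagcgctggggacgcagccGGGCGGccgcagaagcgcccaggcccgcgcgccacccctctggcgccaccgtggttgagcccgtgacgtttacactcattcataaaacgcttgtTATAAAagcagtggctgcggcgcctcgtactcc
EGR1: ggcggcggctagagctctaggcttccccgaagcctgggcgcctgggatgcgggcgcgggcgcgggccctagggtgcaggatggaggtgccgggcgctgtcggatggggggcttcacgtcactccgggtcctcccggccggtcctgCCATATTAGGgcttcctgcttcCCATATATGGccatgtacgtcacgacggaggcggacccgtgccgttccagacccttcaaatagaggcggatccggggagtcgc

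The capitals in JUN are the AP-1 type site TGACATCA, which begins 67 bases before the start and binds JUN and ATF proteins, and SP1 type GC boxes (GGGCGG, or CCGCCC on the other strand). JUNB holds the TATA box TATAAA, 31 bases before the start. FOS holds TATAAA at 33 bases before the start and 1 GC box. EGR1 holds 2 CArG boxes, the element bound by serum response factor, at 105 and 83 bases before the start. Motifs were searched on both strands in the 31 starts of the 20 members that matched RefSeq and in all 35116 promoters of the same length. TGACATCA was in 3.23% of the members' promoters and 2.37% of all, the CArG box in 3.23% and 1.16%, TATAAA in 16.1% and 10.7%, GGGCGG in 54.8% and 42.6%, the ETS site CCGGAA in 32.3% and 14.5%, TGACTCA in 3.23% and 4.2%, and TGACGTCA in 0% and 1.65%. Alternative starts of a gene were counted separately, and those of ETV1 held CCGGAA at 141, 137 and 136 bases before the start. A match describes the sequence and shows no binding.

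Between resistant sublines and TKI-treated parental cells, the question of what sets resistant cells in drug apart from sensitive cells in drug, JUN was higher in the sublines and JUNB and MAP2K2 were lower. These 3 of 28 members (10.7%) had a limma adjusted p under 0.05, beside 6.04% of all 48107 probes (1 higher beside 2.71%, 2 lower beside 3.33%). An unadjusted p under 0.05 was reached by 9 members, beside 20.5% of all probes. The groups did not overlap for 9 members (5 higher, beside 12.5%, and 4 lower, beside 13%), where 25.6% of all probes did not overlap in either direction. The median change over the members was 0.07 on the log2 scale, and 0.001 over all probes. The median absolute change was 0.25 over the members and 0.10 over all probes. Only 5 members had a mean below that of SMARCB1 (6.82), while the array median was 6.67. The shares here and below thus set mostly brighter probes beside many near background. With a drug block the fit called 5 members, adding FOSB and IER3, beside 7.72% of all probes, and the fit with the array sets called 0, beside 0.00208% of all probes.

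Between TKI-treated parental and untreated cells 0 of 28 members passed in limma, beside 0.00416% of all probes, and 5 members had an unadjusted p under 0.05, beside 12.4%. The groups did not overlap for 10 members (5 higher, beside 14.1%, and 5 lower, beside 14.6%), where 28.7% of all probes did not. Between resistant sublines and untreated cells 0 of 28 passed, beside 0.276% (0.158% higher and 0.118% lower), and 2 had an unadjusted p under 0.05, beside 7.26%. Here 6 members had groups without overlap (4 higher, beside 11.1%, and 2 lower, beside 12.4%), beside 23.4%. The comparisons share arrays, so their counts are not independent of each other. Without adjustment, the methods' t-test called 4 members between treated and untreated cells, beside 9.28% of all probes, and 1 between sublines and untreated cells, beside 5.6%.

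**Figure D1:**
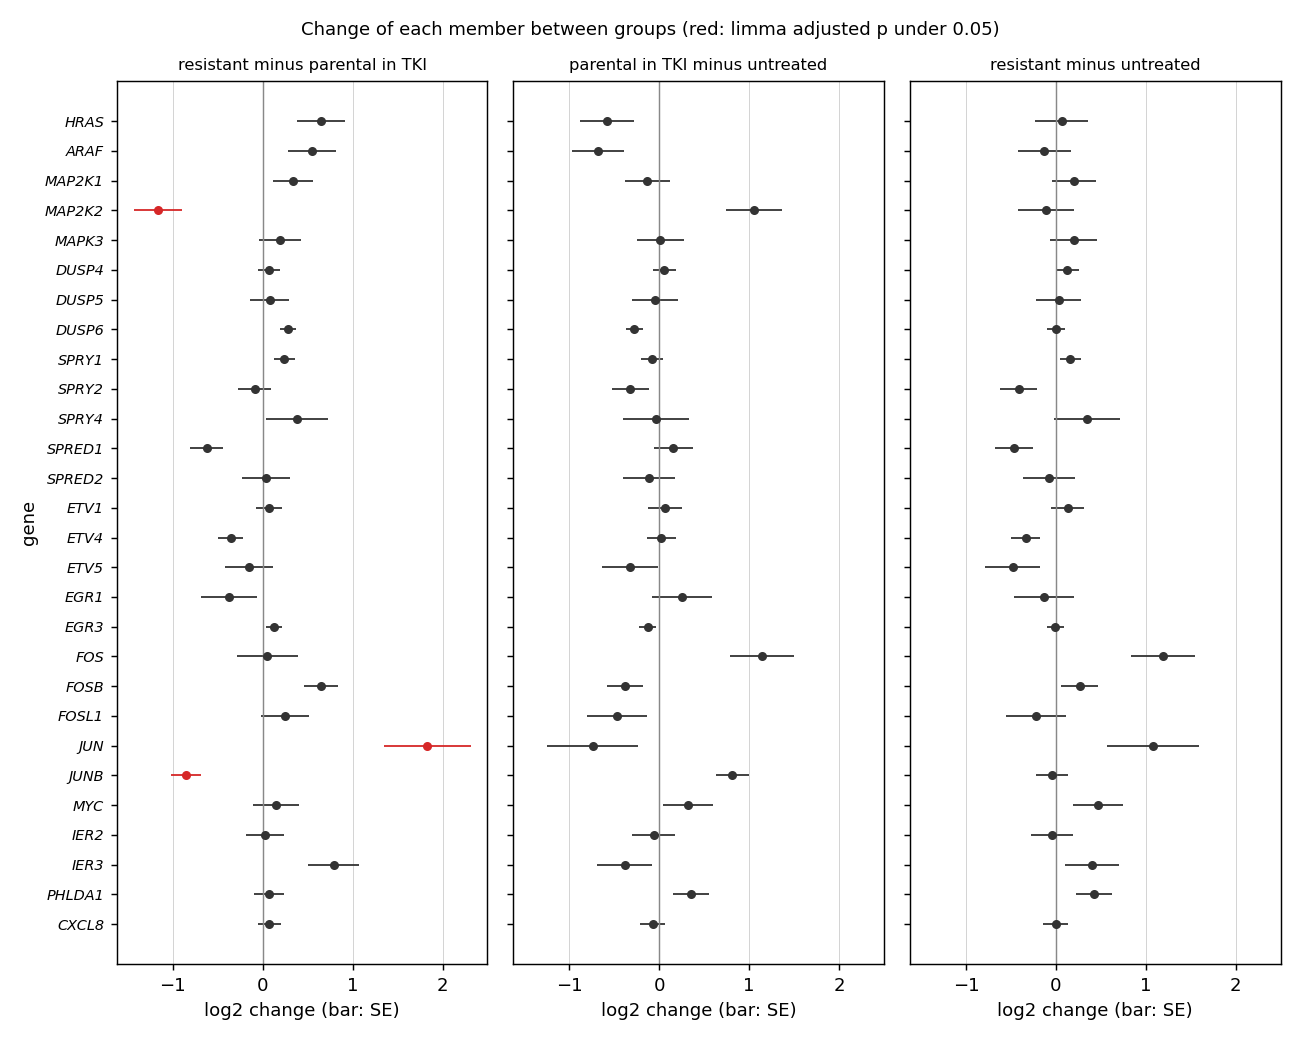
Log2 change of each of the 28 members between groups, with the limma standard error as the bar and red for an adjusted p under 0.05. JUN at 1.83, JUNB at -0.86 and MAP2K2 at -1.17 are red in the panel of sublines minus treated parental cells, and no member is red in the other panels.

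HRAS and ARAF had their lowest signals, by their brightest probes, in parental cells in dasatinib and pazopanib, and neither passed in any comparison. HRAS, the GTPase that passes receptor signals to RAF, was at 9.08, 8.67 and 9.69 in parental cells in dasatinib, pazopanib and sunitinib, at 9.66 and 9.80 in the untreated arrays, and at 9.96, 9.69 and 9.74 in DasR, PazR and SunR. The parental arrays in dasatinib and pazopanib were low, and the sunitinib array lay within the untreated range and below the lowest subline, PazR, by less than the rounding shown here, so that sublines and treated cells did not overlap. The change from treated parental cells to sublines was 0.65 (SE 0.27) and did not pass (limma adjusted p = 0.203). When each array was left out in turn, the change lay between 0.41 and 0.92, and the limma adjusted p between 0.0342 and 0.531. The dimmer HRAS probe had the opposite sign, at -0.24 (adjusted p = 0.0791), and -0.11 with the array sets. Its mean of 6.63 was below that of SMARCB1 (6.82), so that its sign lies near background.

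ARAF, a RAF kinase that phosphorylates MEK, was at 8.84 and 8.93 in parental cells in dasatinib and pazopanib and at 9.73 in sunitinib. It was at 9.87 and 9.83 in the untreated arrays and at 9.79, 9.84 and 9.53 in DasR, PazR and SunR. All 3 treated parental arrays lay below both untreated arrays, with a change of -0.68 (SE 0.29) that did not pass (limma adjusted p = 0.364). Leaving out both sunitinib arrays made it pass at -0.96 (adjusted p = 0.0451). Sublines and treated parental cells overlapped and differed by 0.55 (SE 0.27, adjusted p = 0.275).

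Of the MEK and ERK kinases, MAP2K2 passed between sublines and treated parental cells and the others did not. MAP2K2, which encodes MEK2, a kinase that activates ERK, was at 10.78, 11.25 and 10.31 in parental cells in dasatinib, pazopanib and sunitinib. It was at 9.43 and 10.02 in the untreated arrays and at 9.45, 9.56 and 9.83 in DasR, PazR and SunR. Every treated parental array lay above every other array, and the sublines lay within the untreated range. MAP2K2 fell by 1.17 (SE 0.27), 2.25-fold, from treated parental cells (10.8 ± 0.47, SD, n = 3) to the sublines (9.61 ± 0.19, SD, n = 3), with a limma adjusted p of 0.0277. The call was lost in 8 of 22 alternatives, among them those without the parental dasatinib array (adjusted p = 0.109), the parental pazopanib array (0.138), DasR (0.0711) or PazR (0.101). With the array sets in the fit the change was -0.59 (adjusted p = 0.973). Treated parental cells were 1.05 (SE 0.31) above untreated cells (adjusted p = 0.193), and sublines were -0.11 from them.

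MAP2K1, its partner MEK1, lay between 9.03 and 9.74 over the 8 arrays and differed between sublines and treated parental cells by 0.33 (SE 0.22, limma adjusted p = 0.443). MAPK3, which encodes ERK1, had probes that moved apart. The brighter probe was at 10.11, 10.12 and 10.18 in the treated parental arrays and at 9.97, 10.63 and 10.38 in DasR, PazR and SunR, with a change of 0.19 (adjusted p = 0.717). Its dimmer probe was at 9.87, 9.78 and 9.65 in the treated parental arrays and at 8.56, 9.23 and 9.09 in the sublines, with a change of -0.81 (adjusted p = 0.0703). The dimmer probe's groups did not overlap, but neither probe passed. With the array sets the dimmer probe's change was -0.13 (adjusted p = 0.991), and its untreated arrays lay apart at 8.89 (replicate 1) and 9.57 (replicate 2).

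**Figure D2:**
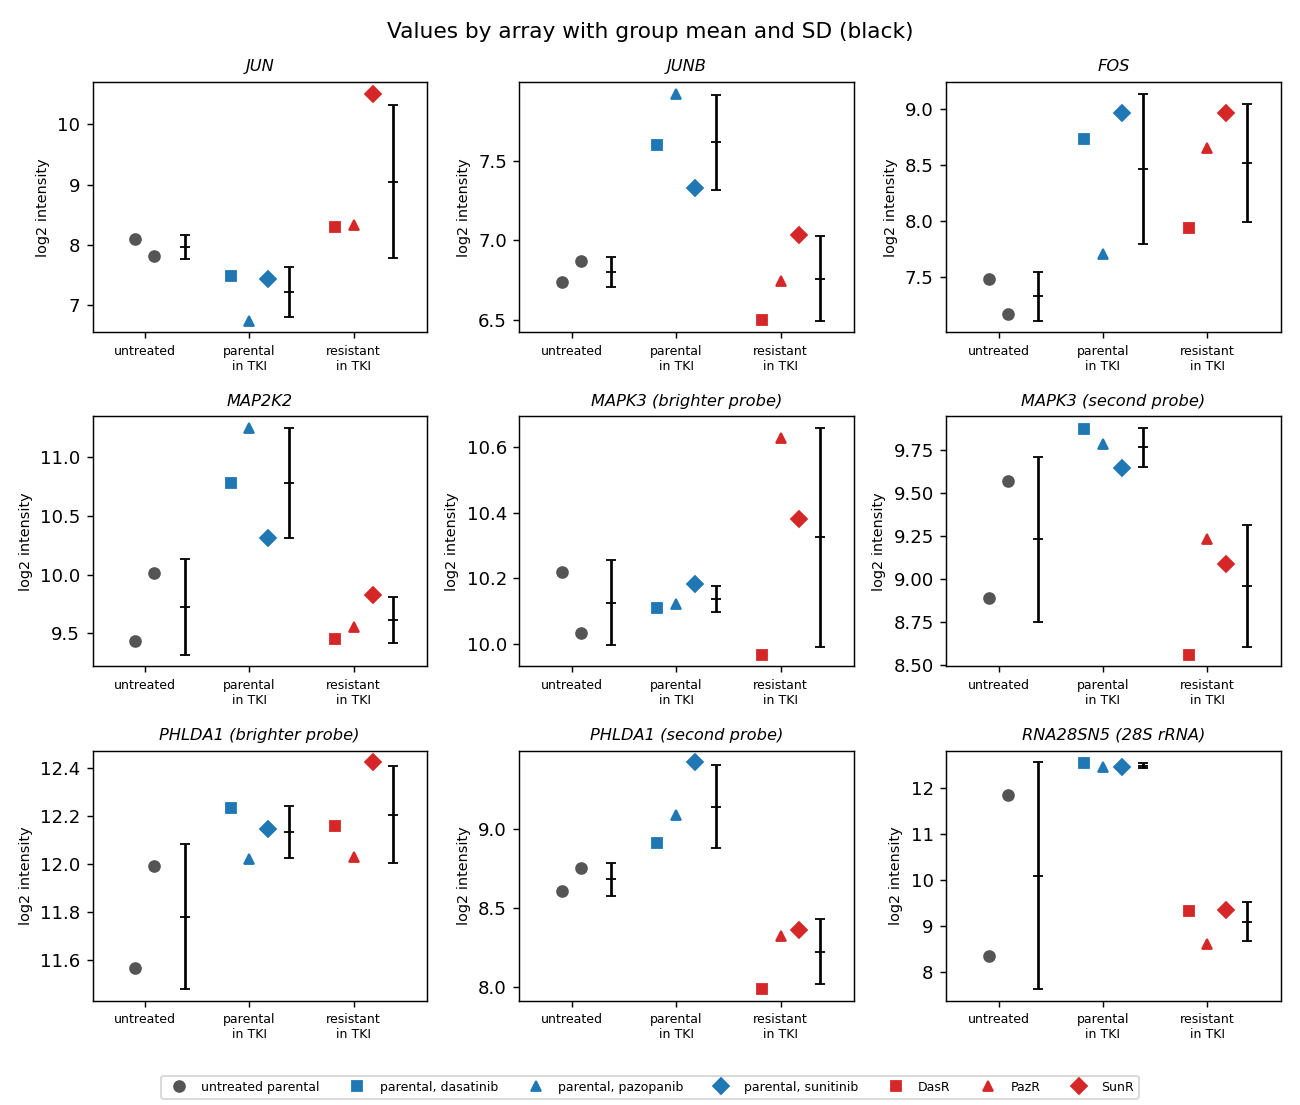
Log2 intensity by array for JUN, JUNB, FOS, MAP2K2, the probes of MAPK3 and PHLDA1, and the ribosomal RNA probe RNA28SN5, with the group mean and SD in black and the drug by marker shape. SunR stands apart in JUN at 10.51, MAP2K2 is highest in the 3 treated parental arrays, and RNA28SN5 separates the untreated arrays at 8.35 and 11.84.

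The feedback phosphatases moved little between sublines and treated parental cells. DUSP6, a cytoplasmic phosphatase that removes phosphate from ERK and a common readout of pathway activity, was at 6.53, 6.69 and 6.58 in the treated parental arrays, 6.92 and 6.83 in the untreated arrays, and 6.87, 6.78 and 6.99 in DasR, PazR and SunR. The treated parental arrays were the lowest in a range near background, and the sublines did not overlap them. The change of 0.28 (SE 0.09) from treated parental cells to sublines did not pass (limma adjusted p = 0.0822). The dimmer DUSP6 probe had the opposite sign, at -0.06, and its groups overlapped. DUSP4 and DUSP5, which act on ERK in the nucleus, changed by 0.07 and 0.08, and each was highest in SunR, at 6.86 and 8.12. The dimmer DUSP4 probe was instead highest in untreated replicate 1, at 6.72. DUSP4, DUSP6, SPRY1, ETV1 and EGR3 had mean signals below that of SMARCB1 (6.82), a gene these cells lack, so that a difference in them lies near background.

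Among the Sprouty and SPRED adaptors, SPRED1 had its lowest signals in the sublines and did not pass. SPRED1, which brings the RAS inhibitor neurofibromin to the membrane, was at 11.77, 11.71 and 11.53 in parental cells in dasatinib, pazopanib and sunitinib, at 11.67 and 11.36 in the untreated arrays, and at 11.00, 11.15 and 10.99 in DasR, PazR and SunR. All sublines lay below all 5 parental arrays. The difference from treated parental cells was -0.62 (SE 0.18, limma adjusted p = 0.0731) and from untreated cells -0.47 (SE 0.21, adjusted p = 0.685), so neither passed.

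SPRY4, an inhibitor of receptor signaling to RAS, was at 8.06, 7.72 and 7.98 in the treated parental arrays, 7.90 and 8.01 in the untreated arrays, and 7.63, 7.97 and 9.31 in DasR, PazR and SunR. Only SunR stood out among these 8 values, and the sublines overlapped both other groups. The next brightest SPRY4 probe was also highest in SunR, at 7.37. SPRY2 lay at 6.37 in DasR, 6.49 in PazR and 7.25 in SunR, beside 6.75 to 6.83 in the treated parental arrays. Its untreated arrays were at 7.30 and 6.93, above all treated parental arrays, and its mean of 6.84 was close to that of SMARCB1 (6.82). SPRY1 was highest in DasR, at 6.99, and SPRED2 lowest in parental cells in pazopanib, at 7.90. Of the 5 adaptors, 3 had a higher and 2 a lower mean in the sublines than in treated parental cells, and none passed in limma.

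The PEA3 group of ETS factors, ETV1, ETV4 and ETV5, is induced by ERK in many cell types and none of its members passed. ETV5 was at 11.12, 10.46 and 10.89 in the treated parental arrays, 10.86 and 11.44 in the untreated arrays, and 10.29, 10.62 and 11.10 in DasR, PazR and SunR. The groups overlapped, with a difference of -0.48 (SE 0.31, limma adjusted p = 0.779) between sublines and untreated cells. ETV4 was between 6.94 and 7.01 in the sublines and between 7.02 and 7.59 in the treated parental cells, a difference of -0.36 (SE 0.14, adjusted p = 0.169). Its dimmer probe gave -0.25. ETV1 had no group outside the range of another.

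The immediate early factors held the widest differences. JUN, the central AP-1 subunit whose promoter is shown above, was at 7.49, 6.74 and 7.44 in parental cells in dasatinib, pazopanib and sunitinib, at 8.11 and 7.82 in the untreated arrays, and at 8.31, 8.34 and 10.51 in DasR, PazR and SunR. The treated parental arrays were the lowest and the sublines the highest, with no overlap among the 3 groups, and SunR lay far above every other array. JUN rose by 1.83 (SE 0.48), 3.55-fold, from treated parental cells (7.22 ± 0.42, SD, n = 3) to the sublines (9.05 ± 1.26, SD, n = 3), with a limma adjusted p of 0.0493. The subline minus its own parental array in the same drug was 0.82 for dasatinib, 1.60 for pazopanib and 3.07 for sunitinib, higher in 3 of 3. Without SunR the change was 1.10 (adjusted p = 0.0143). The call was lost in 13 of 22 alternatives, among them those without the parental dasatinib (adjusted p = 0.114), pazopanib (0.196) or sunitinib array (0.0768), without an intensity trend (0.145) and with robust estimation (0.257), and with the array sets the change was 1.55 (adjusted p = 0.973). Treated parental cells were 0.74 lower than untreated cells on the log2 scale (-0.74, SE 0.51, adjusted p = 0.595), and the sublines 1.09 higher (SE 0.51, adjusted p = 0.698).

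JUNB, an AP-1 subunit that can restrain JUN, went the other way. It was at 7.60, 7.92 and 7.33 in parental cells in dasatinib, pazopanib and sunitinib, at 6.74 and 6.87 in the untreated arrays, and at 6.50, 6.74 and 7.03 in DasR, PazR and SunR. Every treated parental array lay above every other array, and the sublines enclosed the untreated range. JUNB fell by 0.86 (SE 0.17), 1.81-fold, from treated parental cells (7.61 ± 0.30, SD, n = 3) to the sublines (6.76 ± 0.27, SD, n = 3), with a limma adjusted p of 0.0136. The call was lost in 7 of 22 alternatives, among them those without the parental dasatinib array (adjusted p = 0.0514), the parental pazopanib array (0.059) or PazR (0.0537), and with the array sets the change was -0.72 (0.973). JUNB was 0.81 (SE 0.18) higher in treated parental than in untreated cells (adjusted p = 0.145), which passed when the parental sunitinib array was left out (adjusted p = 0.0275). Sublines and untreated cells differed by -0.04.

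FOS, the partner of JUN proteins in AP-1, had a higher signal in every array in drug than in the untreated arrays, and passed in no comparison. It was at 8.73, 7.71 and 8.97 in parental cells in dasatinib, pazopanib and sunitinib, at 7.49 and 7.17 in the untreated arrays, and at 7.94, 8.66 and 8.97 in DasR, PazR and SunR. All 6 arrays in drug lay above both untreated arrays, and treated parental cells and sublines overlapped. The change from untreated cells was 1.14 (SE 0.36, limma adjusted p = 0.217) in treated parental cells and 1.19 (SE 0.36, adjusted p = 0.423) in the sublines, and neither passed. Treated parental cells and sublines differed by 0.05 (SE 0.34). The same 2 untreated arrays stand behind both values.

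FOSB was at 7.33, 7.12 and 7.32 in the treated parental arrays, 7.72 and 7.56 in the untreated arrays, and 8.36, 7.64 and 7.71 in DasR, PazR and SunR. The sublines lay above the treated parental cells without overlap, by 0.65 (SE 0.19, limma adjusted p = 0.0686). FOSL1, which accumulates when ERK signaling lasts, had a wide spread within groups, such as 9.01 and 8.16 in the untreated arrays. EGR1 was at 9.33, 7.97 and 9.07 in parental cells in dasatinib, pazopanib and sunitinib and between 8.28 and 8.64 in the sublines and the untreated arrays. The parental pazopanib array was the lowest of all and the other treated arrays the highest, so that the treated group enclosed the rest. EGR3 lay near background.

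MYC, a growth-promoting factor that ERK stabilizes, was at 10.63, 10.65 and 10.80 in the treated parental arrays, 10.36 and 10.38 in the untreated arrays, and 11.36, 10.44 and 10.73 in DasR, PazR and SunR. By this brighter probe all arrays in drug lay above the untreated arrays, and DasR was the highest. The difference between sublines and untreated cells was 0.47 (SE 0.28, limma adjusted p = 0.759). The dimmer MYC probe was also highest in DasR, at 11.21. By it the parental pazopanib array (10.21) lay below untreated replicate 1 (10.34), so that treated and untreated cells overlapped.

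**Figure D3:**
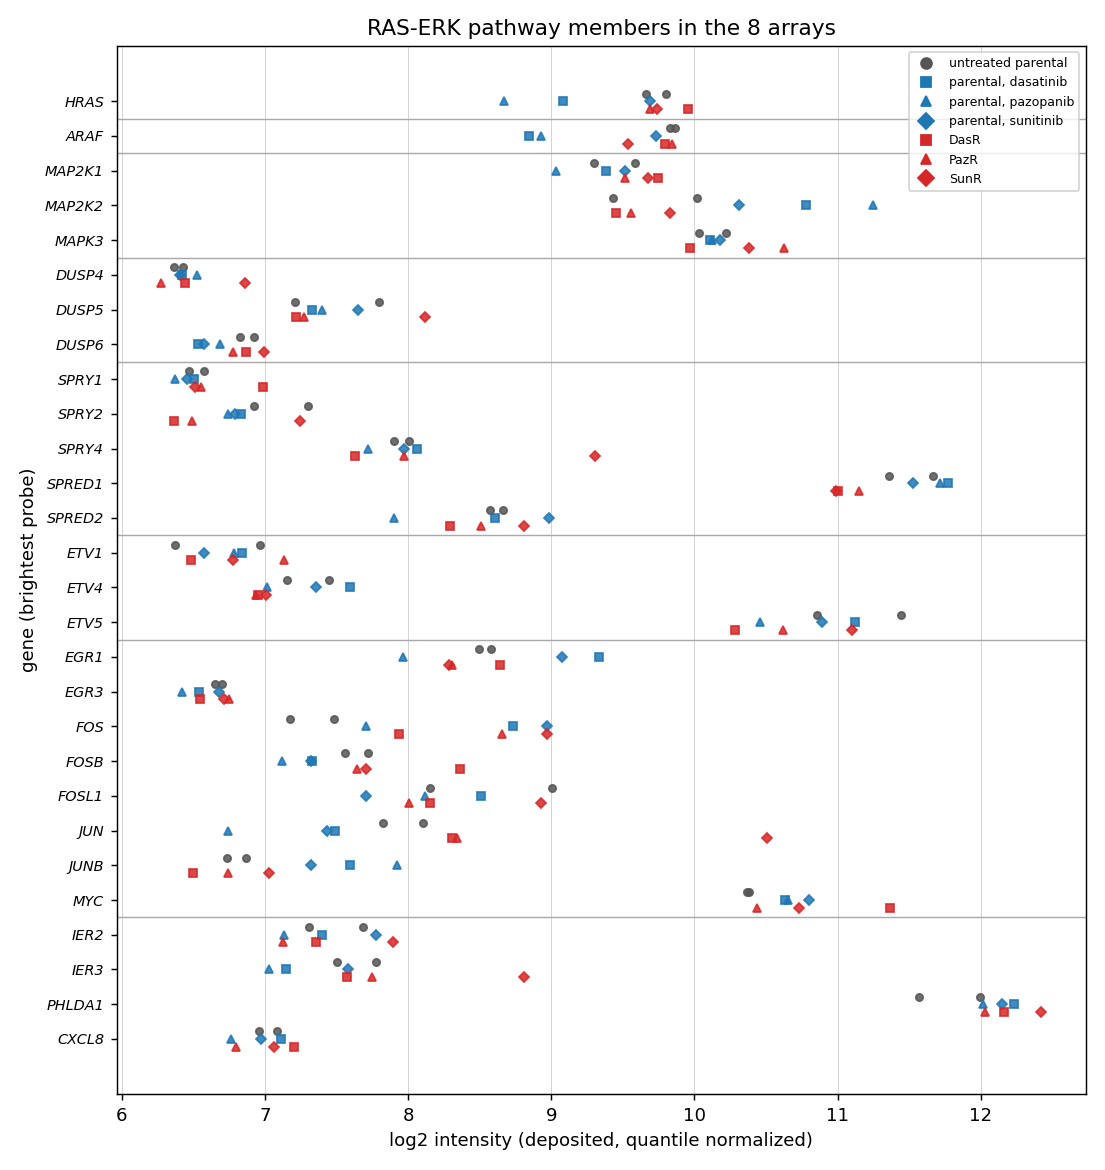
Log2 intensity of the 28 members in each array, 1 row per gene ordered by role, coloured by group and with the drug by marker shape. Positions compare arrays within a row and not genes with each other. JUN spans 6.74 to 10.51, and SunR lies at the right end of its row and of SPRY4, IER3 and DUSP5.

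The other early response genes included IER3, which protects cells from death signals and can prolong ERK activity. It was at 7.15, 7.03 and 7.58 in the treated parental arrays, 7.50 and 7.78 in the untreated arrays, and 7.57, 7.75 and 8.81 in DasR, PazR and SunR. SunR was the highest, and DasR fell just below the parental sunitinib array, so that the groups overlapped. The difference between sublines and treated parental cells was 0.79 (SE 0.28, limma adjusted p = 0.135), and passed with the drug as a block (adjusted p = 0.0222).

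PHLDA1, a pleckstrin homology domain protein induced by ERK, had probes that differed. The brighter probe lay between 11.57 and 12.42 in all arrays, with a difference of 0.07 between sublines and treated parental cells. The dimmer probe was at 8.91, 9.08 and 9.42 in the treated parental arrays, 8.60 and 8.75 in the untreated arrays, and 7.98, 8.32 and 8.36 in DasR, PazR and SunR. By that probe the sublines lay below all parental arrays, and the difference of -0.92 (SE 0.21) passed (adjusted p = 0.0276). That call was lost when either the parental dasatinib or pazopanib array, DasR or PazR was left out (highest adjusted p = 0.0991), and with the array sets the change was -0.77 (adjusted p = 0.973). CXCL8, the chemokine formerly IL8, changed by 0.07.

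The drugs were compared by setting the sunitinib arrays against those of dasatinib and pazopanib, parental and resistant together. In limma 0 of 28 members passed, beside 0.0416% of all probes (0.0374% higher), and 8 had an unadjusted p under 0.05, beside 9.5%. Both sunitinib arrays lay above all 4 others for 4 members, beside 6.88% of all probes, and below for 0, beside 7.27%, or 14.1% in either direction. Means were higher in sunitinib for 21 members and lower for 7, with a median of 0.15, and -0.003 over all probes. JUN differed by 1.25 (SE 0.36, adjusted p = 0.349), and by 0.32 without SunR, and parental cells in sunitinib had 7.44. IER2, an early gene of unclear biochemical role, was at 7.78 in parental cells in sunitinib and 7.90 in SunR, and at 7.40, 7.13, 7.36 and 7.13 in the parental dasatinib and pazopanib arrays, DasR and PazR. The untreated arrays were at 7.31 and 7.69. Its sunitinib arrays lay above those of the other drugs without overlap, by 0.58 (SE 0.12, adjusted p = 0.235). IER3 differed by 0.82 (adjusted p = 0.236), SPRY4 by 0.80 (0.462), FOS by 0.71 (0.510) and DUSP5 by 0.58 (0.324), and these did not pass. Without SunR the difference of SPRY4 was 0.08 and that of IER3 0.49. JUN and IER3 passed without the parental dasatinib array (adjusted p = 0.0214 and 0.0407), and JUN, IER3 and SPRY4 without the parental sunitinib array, which leaves SunR alone to stand for sunitinib.

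With 1 array per drug, single drugs have no test. SunR minus untreated cells exceeded 1 on the log2 scale for 4 members, JUN (2.54), FOS (1.64), SPRY4 (1.35) and IER3 (1.17), and fell below -1 for 0, beside 2.3% of all probes past 1 in either direction. SunR minus parental cells in sunitinib exceeded 1 for 4 members, beside 3.49%. PazR minus untreated cells exceeded 1 for 1 member, FOS, beside 0.838%, and DasR minus untreated cells for 0, beside 1.16%. Parental cells in dasatinib minus untreated cells passed 1 for 3 members (2 higher and 1 lower), beside 1.4%, in pazopanib for 4 (2 and 2), beside 2.5%, and in sunitinib for 1 (FOS), beside 1.23%. Between sublines and their parental array, 3 members passed 1 in dasatinib, beside 4.43%, and 4 in pazopanib, beside 3.37%. The untreated arrays differed from each other by over 1 for 0 members, beside 1.28%. SunR was the highest of the 8 arrays for 8 members, beside 12.1% of all probes, and parental cells in pazopanib the lowest for 10, beside 14.8%.

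**Figure D4:**
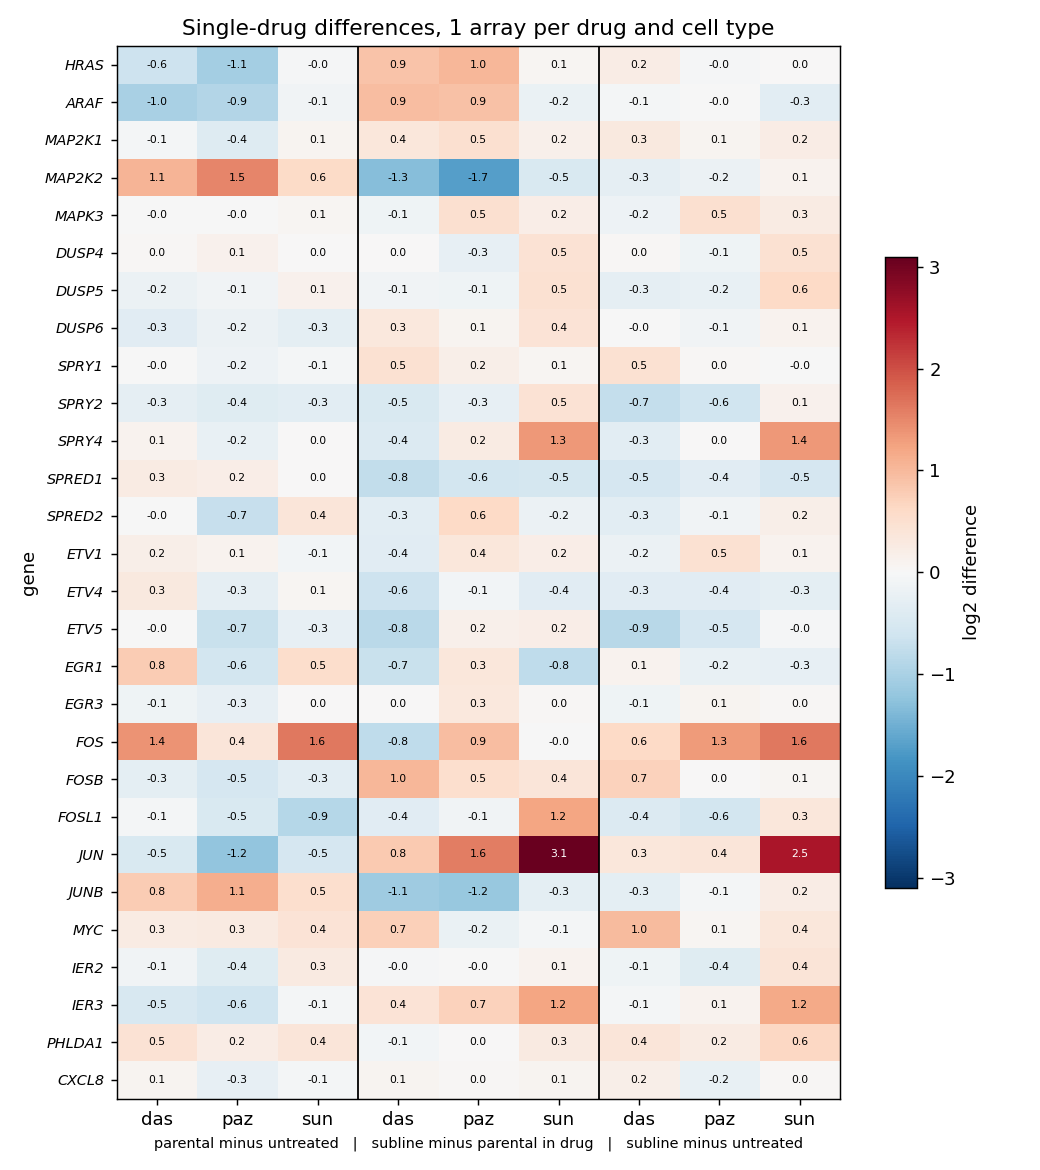
Log2 differences of each member for each drug (das, dasatinib; paz, pazopanib; sun, sunitinib), with 1 array per drug in parental cells and in the subline and the mean of the 2 untreated arrays. Red is higher and blue lower. JUN rises from 0.82 in dasatinib to 1.60 in pazopanib and 3.07 in sunitinib between subline and parental cells, and MAP2K2 and JUNB are positive in parental cells in all drugs.

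Other genes of the pathway were taken from a list of 80, of which 70 were measured. The list was drawn up with earlier results of these data known, so that its shares are descriptions and no test of the pathway. Between sublines and treated parental cells 3 were higher and 4 lower (10%), beside 6.04% of all probes. CCND1, the cyclin D that ERK induces to enter the cell cycle, was between 11.41 and 11.70 in the treated parental arrays, at 12.47 and 12.17 in the untreated arrays, and at 12.41, 13.03 and 13.62 in DasR, PazR and SunR. The sublines lay above the treated parental cells without overlap and the untreated arrays in between or at the low end of the sublines, with a rise of 1.50 (SE 0.26, limma adjusted p = 0.00707). UPP1, uridine phosphorylase, rose by 1.76 (SE 0.34, adjusted p = 0.0129) and RRAS2, a RAS relative that activates PI3K and RAF, by 0.88 (SE 0.19, adjusted p = 0.0205), and each call was lost without the parental dasatinib or pazopanib array.

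CXCL1, a neutrophil chemokine, was between 8.11 and 8.37 in the treated parental arrays, at 8.34 and 8.65 in the untreated arrays, and at 6.88, 7.54 and 7.00 in DasR, PazR and SunR. The sublines lay below all parental arrays. CXCL1 fell by 1.07 (SE 0.18, limma adjusted p = 0.00638) against treated parental cells and by 1.36 (SE 0.21, adjusted p = 0.0148) against untreated cells, where it was the only pathway gene of the 70 to pass (1.43%, beside 0.276% of all probes) and was lost without untreated replicate 2 (adjusted p = 0.340) and with the array sets (-1.20, adjusted p = 0.374). CIC, a repressor of PEA3 genes that ERK inactivates, fell by 1.18 (SE 0.20, adjusted p = 0.00701), with a change of -0.47 in the fit with the array sets. MAFF, a small MAF factor, fell by 1.02 (SE 0.18, adjusted p = 0.00701), a direction that turned to 0.56 higher with the array sets in the fit, and DUSP9 fell by 0.31 near background, a call lost without the parental dasatinib or pazopanib array, SunR or PazR (highest adjusted p = 0.084). With the array sets none of these 7 genes passed (adjusted p = 0.973), and RRAS2 was 0.53 higher. Between treated parental and untreated cells 0 of the 70 passed in limma, while 8 had an unadjusted p under 0.05, beside 12.4% of all probes. The smallest p-values there belonged to CIC (0.96, adjusted p = 0.164), CCND1 (-0.80, 0.270), the adaptor SHC1 (0.57, 0.292) and HMGA1 (1.59, 0.299). Between sublines and untreated cells KLF4 (2.15, adjusted p = 0.200), MRAS (-0.31, 0.450) and GDF15 (2.03, 0.510) followed CXCL1 and did not pass.

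Between sunitinib and the other drugs, 1 of the 70 genes passed (1.43%, beside 0.0416% of all probes). MKNK2, a kinase that ERK and p38 activate and that phosphorylates eIF4E, was at 11.92 in parental cells in sunitinib and 12.12 in SunR, and between 10.29 and 10.74 in the other 6 arrays. Both sunitinib arrays thus stood above all others, by 1.55 (SE 0.19, limma adjusted p = 0.0417), with the call lost without the parental pazopanib array or PazR (highest adjusted p = 0.206). KLF4 (1.44, adjusted p = 0.0609), KLF2 (1.86, 0.0806) and VEGFA (1.41, 0.118) had the next smallest p-values and did not pass.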

How the data were processed

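RNA of 8 samples was measured on Illumina HumanHT-12 arrays. In beadarray the authors preprocessed and quantile normalized the signals, and the deposited values are log2 intensities of 48107 probes. The beadarray version and the background treatment were not given in the sources used here. Precision is limited by how few arrays there were.

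Probes were named through the platform annotation, with exactly 1 symbol for 30113 probes, several for 8 and none for 17986. Every probe was tested with limma 3.58.1 under R 4.3.3, using lmFit and a trended eBayes. The Benjamini-Hochberg method adjusted p-values over the whole table, and 0.05 was the threshold. Sublines and treated parental cells were compared in 6 arrays, untreated cells in 1 fit of all 8 arrays, and drugs in 6 arrays with the group as covariate. The study ranked genes by Signal2Noise, for which 3 against 3 arrays allow no exact two-sided permutation p below 0.1. The members, the other pathway genes and the array sets were chosen with earlier results of these data known. Values in every array are given for members that passed, for the 5 of largest change in each comparison and for a few further members chosen after their values were seen, and other pathway genes are named where they passed or were among the 4 of smallest p.

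Arrays share a drug across parental cells and sublines. Deviations from the group means had a correlation over probes of 0.126 (dasatinib), 0.184 (pazopanib) and 0.199 (sunitinib), and a drug block was tried. On simulated data 190 of 200 probes changed by 2 on the log2 scale were recovered between sublines and treated parental cells among 48107 probes. No member changed that much between these groups (JUN, the widest, by 1.83), and the simulated noise was independent between arrays. Recovery of smaller changes was not tested. Alternatives were no trend, robust estimation, the brighter 50% of the probes, renormalization, an offset of 50 on linear intensity, testing 1 probe per gene, another probe choice, arrays or drugs left out, the array sets and the methods' t-test.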

Additional observations from a re-analysis of the deposited data

Results flagged for a closer look

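For 5 members the parental cells in drug and the sublines in drug departed differently from untreated cells. For 3 of them the difference passed in limma: JUN at 1.83 (0.74 below untreated cells in treated parental cells and 1.09 above in the sublines, log2), JUNB at -0.86 (0.81 and -0.04) and MAP2K2 at -1.17 (1.05 and -0.11). FOSB (0.65, limma adjusted p = 0.0686) and SPRED1 (-0.62, adjusted p = 0.0731) had every treated parental array on one side of the untreated mean and every subline on the other, but the difference did not pass. Some of these margins were close to none. FOSB in PazR was 9e-04 above the untreated mean, and in PazR and SunR it lay within the untreated range. SPRED1 in the parental sunitinib array was 0.016 above the untreated mean.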

How the results depend on the processing

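Between sublines and treated parental cells, the count of members that passed (3) ranged from 0 to 5 when each array was left out (0 without the parental dasatinib or pazopanib array, beside 2.41% and 2.15% of all probes, 5 without the parental sunitinib array, beside 8.09%, 1 without PazR, beside 3.26%, and 2 without DasR, beside 4.23%). It was 0 without both arrays of dasatinib (1.62%) or of pazopanib (0.692%) and 9 without both of sunitinib (10.2%). It was 5 with the drug block (7.72%) and 0 with the array sets (0.00208%). The methods' t-test after Benjamini-Hochberg also gave 0, but its share over all probes was not computed, so that this 0 says nothing particular to the members. Between treated and untreated cells (0) it ranged from 0 to 1 on leaving out an array (JUNB without the parental sunitinib array, beside 1.21%), and was 3 without both sunitinib arrays (2.36%) and 4 with the methods' t-test without adjustment. Between sublines and untreated cells (0) it ranged from 0 to 1 (SPRY2 without SunR, beside 0.364%), with 1 without both sunitinib arrays (0.432%) and 1 with the unadjusted t-test of the methods. Between sunitinib and the other drugs (0) it ranged from 0 to 5, with 2 (IER3 and JUN) without the parental dasatinib array (0.628%) and 5 (DUSP5, IER3, JUN, SPRY2 and SPRY4) when the parental sunitinib array was left out (1.42%). Fewer arrays entered the fits that left some out, and the cause of the other changes was not tested. Between the groups, the median change of the members moved by less than the spread between arrays in each of the alternatives for which it was computed (19, 20 and 20), which did not include the drug comparison. That spread (SD 0.22, 0.15 and 0.14) was wider than the medians themselves (0.07, -0.07 and 0.02). Over the alternatives the medians ran from -0.04 to 0.19, from -0.13 to 0.02 and from -0.04 to 0.12, so that their sign was not stable. Single members were followed here only if they passed or were among the 5 of largest change in a comparison. Of their 390 values, 346 kept their direction and side of the threshold, 28 lost and 15 gained a call, and 1 reversed. That was HRAS, at -0.24 when the probe with the largest test statistic, which lay near background, was used. All lost calls belonged to JUN (13 of 22 alternatives), JUNB (7 of 22) and MAP2K2 (8 of 22). Most values that kept their side were of members without a call. Replicate numbers pair no arrays, and the paired fit of sublines and treated parental cells is the one by drug. Groups of 2 or 3 arrays, 1 subline per drug and signals near background limit what could be detected.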
